A study of Mus musculus with 4 samples.

Results

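Gja1, Gja4, Gja5 and Gjc1 encode the connexins that are most often described in vessel walls. They were chosen by name: each symbol had 1 row in both mRNA matrices, so these are 4 of 31054 measured features. The cells came from the ears of C57BL/6 mice at postnatal day 8. CD31+ cells had been enriched and then sorted as live cells that carried CD31 and the red reporter of a Cdh5-CreERT2 strain, in which Cre is driven by the promoter of the endothelial cadherin gene Cdh5. There was 1 condition and there were 2 biological replicate libraries, called library 1 and library 2 here. No source used here states how many animals went into each library or how Cre was induced, so the spread between libraries may be technical in part. The question addressed was how each connexin is distributed over the kinds of neonatal endothelium in the sort.

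Connexins assemble into hexameric channels that dock between neighbouring cells as gap junctions and let ions and small molecules pass. In arteries, Gja5 and Gja4 are known as endothelial connexins that carry conducted vasomotor signals along the vessel, and Gja4 and Gja1 are known for roles in the building of lymphatic valves. Gjc1 is known from smooth muscle cells and pericytes, the contractile cells wrapped around the endothelium. Shear stress, Notch signalling and the forkhead factor Foxc2 are textbook regulators of Gja4 and Gja5.

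The libraries held 1745 and 2877 cell barcodes with 15989249 and 26675353 UMIs (unique molecular identifiers, each counting 1 captured transcript), and 3 barcodes occurred in both. After filtering, 1497 and 2239 cells with medians of 8458 and 8982 UMIs were kept. Of these, 1069 and 1610 cells were placed in 9 classes by marker sets that hold no connexin. The classes, with their cells in libraries 1 and 2, were arteriolar (83 and 109, with Cxcl12 and Unc5b among the markers), large artery (44 and 53, with Eln and Mgp), an arterial class with Nebl and Pi16 (38 and 36), capillary (192 and 234), tip (114 and 224), vein (195 and 202), other lymphatic (281 and 576), lymphatic valve (22 and 38, with Foxc2 and Cldn11) and pericyte-like (100 and 138). A further 324 and 506 blood endothelial cells scored between sets and were not compared. Class names stand for these markers and do not show where in the ear a cell lay.

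The lymphatic and pericyte markers, which the gate used, were far apart between lineages. The summed level of 8 lymphatic markers ranged from 23.7 to 87.6 counts-per-million (CPM) in the 6 blood classes and from 11376 to 15753 CPM in the 2 lymphatic ones. The pericyte markers reached 31.3 CPM at most in blood classes and 5105 CPM or more in pericyte-like cells. The pericyte-like cells also held 2310 and 2503 CPM of the pan-endothelial markers, against 3788 to 4752 CPM in blood classes. At least 3 of these 6 endothelial markers were detected in 84.0% and 71.0% of pericyte-like cells. Whether these are doublets, free RNA or cells of mixed state was not tested. The blood classes were closer to each other. The capillary markers summed to 4606 and 4442 CPM in tip cells, against 5960 and 6247 CPM in capillary cells, and the large artery markers to 6105 and 1514 CPM in vein cells, against 1944 and 1491 CPM in arteriolar cells.

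Each connexin had its own order over the classes. Gja4 was highest in the 3 arterial classes, next in lymphatic valve cells and lowest in veins. Gja5 was concentrated in large artery cells. Gja1 was highest in lymphatic cells outside valves and lowest in the large artery and Nebl-Pi16 classes, and Gjc1 stood highest in pericyte-like cells.

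**Figure D1:**
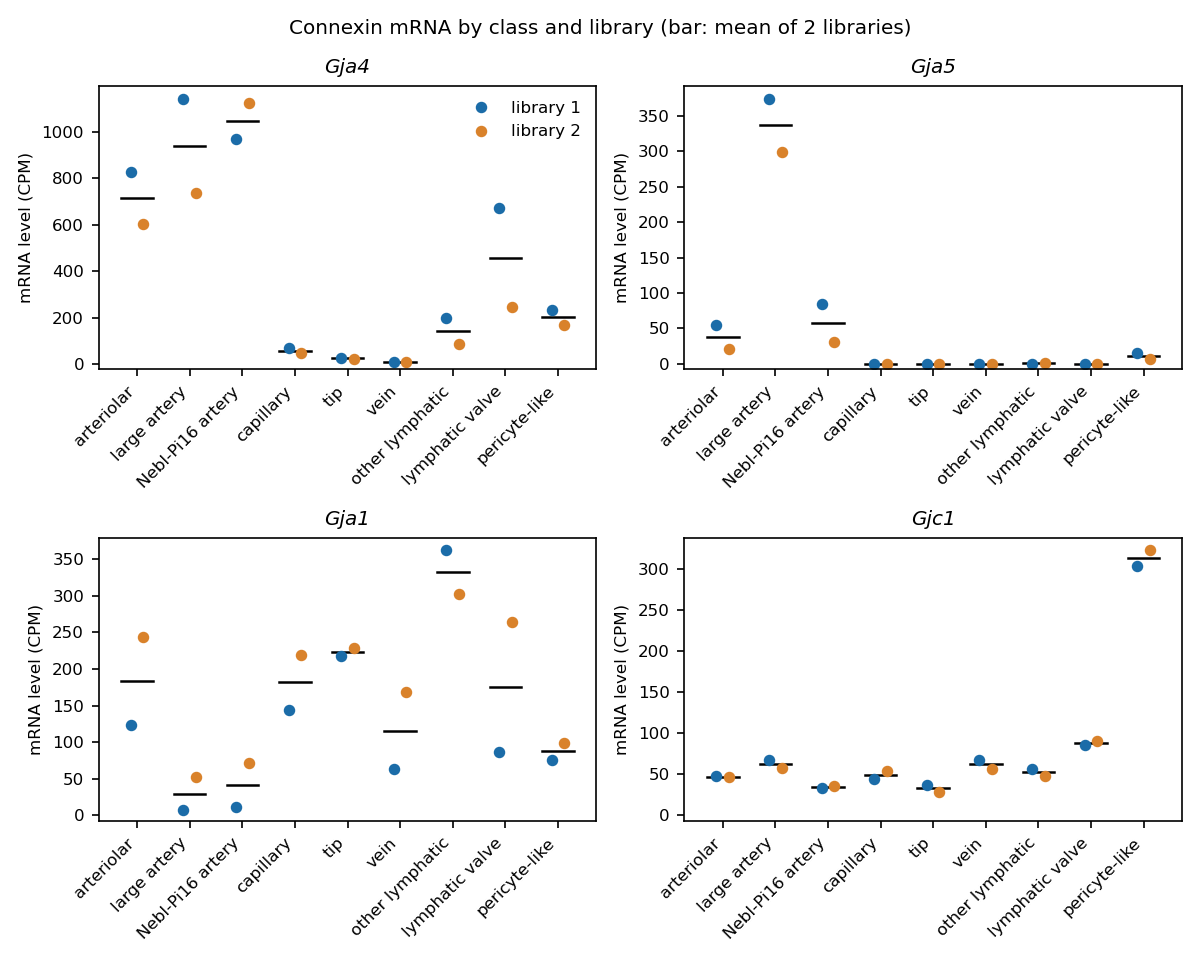
Level of each connexin in CPM (linear axis from 0, scaled separately per gene) in the 9 classes, with 1 point per library and a bar at the mean of 2 libraries. Gja4 lies between 604 and 1142 CPM in the arterial classes and at 6.71 and 7.69 CPM in veins, and Gja5 lies at 299.7 and 374 CPM in large artery cells.

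Gja4 marked arterial cells of every subtype. Its gene (ENSMUSG00000050234) lies at chr4:127311421-127314039 on the minus strand of GRCm38, with its coding sequence in 1 exon. It measured 972 and 1123 CPM in Nebl-Pi16 cells, 1142 and 737 CPM in large artery cells and 826 and 604 CPM in arteriolar cells. The mean in large artery cells was 939 ± 286 CPM (SD, n = 2), and their values overlapped with those of both other classes. Nebl-Pi16 cells lay above arteriolar cells in both libraries, a difference that did not pass the test given below. Capillary cells had 66.6 and 45.3 CPM, and vein cells 6.71 and 7.69 CPM from 13 and 15 UMIs. All 6 arterial values were above all values of the capillary, tip and vein classes, which followed each other in that order without overlap.

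Gja5 was narrower. Its gene (ENSMUSG00000057123) spans chr3:96904693-97077416 on the plus strand of GRCm38. Large artery cells measured 374 and 299.7 CPM (111 and 98 UMIs), a mean of 337 ± 52.4 CPM (SD, n = 2). The Nebl-Pi16 class measured 84.0 and 31.2 CPM (23 and 7 UMIs) and arteriolar cells 55.2 and 20.4 CPM (38 and 18 UMIs). The last 2 classes overlapped, and large artery cells were above both in each library. Tip, vein and lymphatic valve cells had no Gja5 UMI, and capillary cells had 1 UMI in both libraries together. Gja5 overlaps Gpr89 on the opposite strand in the annotation (GENCODE vM21). Vein cells held 29 and 23 UMIs of Gpr89, a Golgi channel gene, while their Gja5 was 0.

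The start regions of these 2 arterial genes are shown because both genes led the arterial comparisons. They are RefSeq windows of 300 bases, from 250 bases before to 50 bases after the gene's RefSeq start, on GRCm38.p6. The RefSeq start of Gja5 lies inside the gene span given above, downstream of the first base of that span. Gja4 is at chr4:127313990-127314289 on the minus strand, and Gja5 at chr3:97032152-97032451 on the plus strand. Capitals mark the longest run of bases that both windows share on the same strand.
Gja4: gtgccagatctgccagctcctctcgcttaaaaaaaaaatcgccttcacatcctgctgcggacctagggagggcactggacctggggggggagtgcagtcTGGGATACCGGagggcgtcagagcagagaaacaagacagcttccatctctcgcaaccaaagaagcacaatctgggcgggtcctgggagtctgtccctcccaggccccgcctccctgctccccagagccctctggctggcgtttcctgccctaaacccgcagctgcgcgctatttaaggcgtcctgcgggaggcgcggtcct
Gja5: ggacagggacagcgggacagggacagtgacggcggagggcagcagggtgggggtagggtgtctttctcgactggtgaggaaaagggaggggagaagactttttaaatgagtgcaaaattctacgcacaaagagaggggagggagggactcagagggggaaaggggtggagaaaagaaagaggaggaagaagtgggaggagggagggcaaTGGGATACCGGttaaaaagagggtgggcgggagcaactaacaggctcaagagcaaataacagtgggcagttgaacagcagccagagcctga
The shared run of 11 bases starts 151 bases before the RefSeq start of Gja4 and 41 bases before that of Gja5. It occurred in 4 of 32851 promoter windows (0.0122%). A shared run of this length was not rare in itself, since 13.5% of the other windows shared some run of at least 11 bases with Gja4 and 13.2% did so with Gja5. On both strands, the core of Krüppel-like factor motifs, CACCC, matched 4 times in Gja5 and 0 times in Gja4, and 57.5% of all windows held it. The GC box GGGCGG matched once in each (35.7% of windows), the SOX core ACAAT matched only in Gja4 (31.0%), and the RBPJ core TGGGAA of Notch signalling matched in neither (25.6%). Such a match is a run of letters, and 3' counting does not show which start site the cells used. The window of Gja1 was searched too and is not printed. Its longest shared run, with either strand searched, was 12 bases with Gja4 and 12 bases with Gja5. No window was found for Gjc1.

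Arteriolar and capillary cells are neighbours along the blood stream. Gja4 was higher in arteriolar cells by 3.68 ± 0.25 on the log2 scale (SE; edgeR adjusted p = 1.06e-09). Gja5 also passed, with 56 against 1 UMIs, a ratio per total UMIs of 134 with an exact interval of 23.0 to 5376 (edgeR adjusted p = 4.92e-06). Of all 10870 genes tested, 9.47% passed in this comparison (4.91% as higher in arteriolar cells and 4.55% as lower), and 2 of the 4 connexins did. Gja1 did not pass, at 123 and 243 CPM in arteriolar and 144 and 220 CPM in capillary cells (log2 difference 0.00 ± 0.30, edgeR adjusted p = 1). Gjc1 differed by -0.08 ± 0.20 (edgeR adjusted p = 0.896). On the log2(CPM + 1) scale, the Gja5 difference was 5.81 in library 1 and 3.84 in library 2.

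Against veins, both arterial connexins passed as well. Gja4 was higher in arteriolar cells by 6.62 ± 0.33 on the log2 scale (edgeR adjusted p = 3.84e-12). Gja5 was at least 46.2-fold higher, taking 3 UMIs over both libraries as the floor for its 0 UMIs in vein cells (edgeR adjusted p = 1.32e-06). Of all genes, 14.4% passed (7.04% as higher in arteriolar cells and 7.39% as lower), and 2 of the 4 connexins did. Gja1 (0.70 ± 0.31, edgeR adjusted p = 0.155) and Gjc1 (-0.39 ± 0.19, edgeR adjusted p = 0.215) did not. The Gja5 difference was 5.81 in library 1 and 4.42 in library 2 on the log2(CPM + 1) scale. This comparison shares the arteriolar sums with the one before.

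Within arteries, Gja5 was higher and Gja1 lower in large artery than in arteriolar cells, and Gja4 did not pass. Large artery cells had more Gja5 than arteriolar cells, by 3.23 ± 0.29 on the log2 scale (edgeR adjusted p = 5.67e-07). Gja1, whose gene (ENSMUSG00000050953) lies at chr10:56377330-56402513 on the plus strand of GRCm38, was lower there, at 6.74 and 52.0 CPM (2 and 17 UMIs), by -2.61 ± 0.56 (edgeR adjusted p = 0.00424). Of all genes, 6.12% passed (3.14% as higher in large artery cells and 2.98% as lower), and 2 of the 4 connexins did. Gja4 (0.38 ± 0.22, edgeR adjusted p = 0.409) and Gjc1 (0.41 ± 0.27, edgeR adjusted p = 0.510) did not. The call on Gja1 was lost without the library term (edgeR adjusted p = 0.0526), and its difference was -4.01 in library 1 and -2.21 in library 2 on the log2(CPM + 1) scale. With clusters in place of the gate, Gja4 passed as higher in large artery cells (0.76, edgeR adjusted p = 0.00378).

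The Nebl-Pi16 class shared the low Gja1 but not the high Gja5. Its Gja1 was 11.0 and 71.3 CPM (3 and 16 UMIs), lower than in arteriolar cells by -2.23 ± 0.57 on the log2 scale (edgeR adjusted p = 0.0232). Of all genes, 4.42% passed (1.98% as higher in Nebl-Pi16 cells and 2.44% as lower), and 1 of the 4 connexins did. Gja4 (0.58 ± 0.22, edgeR adjusted p = 0.184), Gja5 (0.68 ± 0.44, edgeR adjusted p = 0.540) and Gjc1 (-0.47 ± 0.34, edgeR adjusted p = 0.639) did not. The call on Gja1 was lost without the library term (edgeR adjusted p = 0.146), and its difference was -3.38 in library 1 and -1.76 in library 2 on the log2(CPM + 1) scale. Gja4 passed in 3 other settings: without the filter on low counts (0.57), with clusters (0.86) and without dividing cells (0.68). Cells of the artery that scored between the subtypes held Gja4 at 1102 and 696 and Gja5 at 102 and 88.0 plain CPM, that is UMIs over those cells' own total without the scaling by edgeR.

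Gja1 differed between the libraries in 1 direction. In the order of its class means, the ranges of the 2 libraries did not overlap for other lymphatic above tip cells and for pericyte-like above Nebl-Pi16 cells, and overlapped for the other neighbours. It was higher in library 2 in 8 of 9 classes, with a median ratio of 1.97 (0.835 to 7.72). Gja4 was higher in library 2 in 2 of 9 classes, with a median ratio of 0.717. The summed level of 13 stress and immediate-early genes, a list chosen after the data had been seen, was higher in library 2 in 9 of 9 classes. The median ratio was 1.49 (1.01 to 1.73), and in other lymphatic cells the sums were close, at 6249 and 6313 CPM. Its part in the Gja1 levels was not tested.

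**Figure D2:**
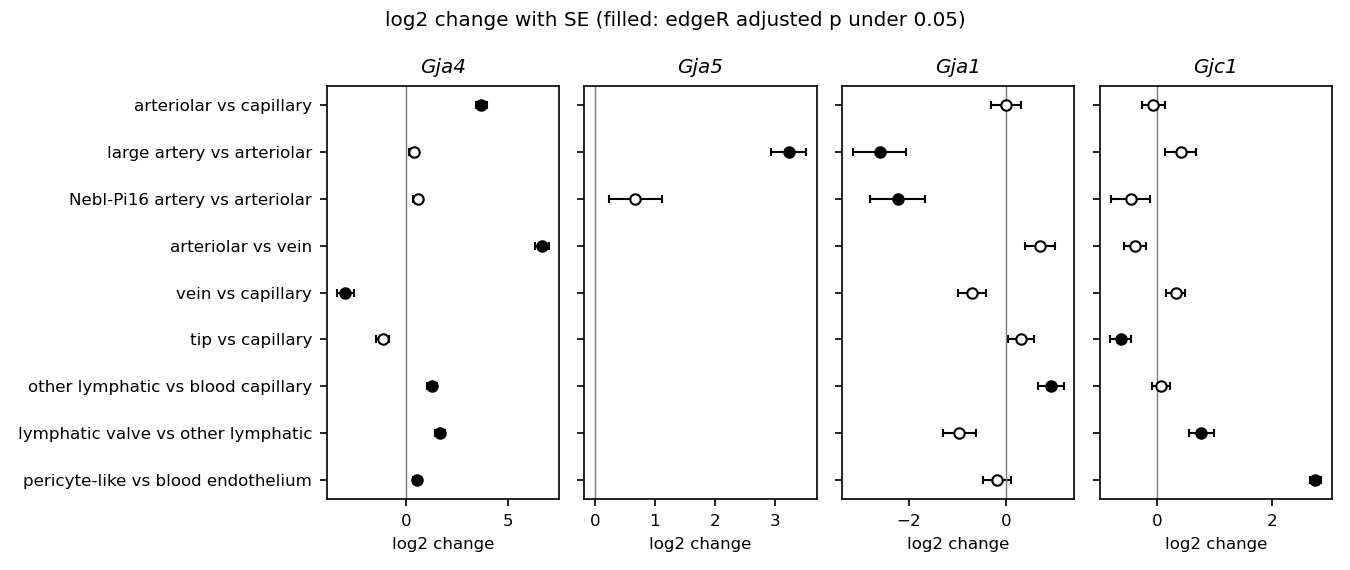
Log2 differences (edgeR) of the 4 connexins in the class comparisons, with bars of 1 SE and filled points where the adjusted p is under 0.05; Gja5 is shown only where both classes had more than 3 UMIs. Gja4 spans from -2.94 (vein against capillary) to 6.62 (arteriolar against vein).

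For Gja4, the shares of single cells followed the order of the levels in each library. Every cell was thinned to 3000 UMIs, which left out 0 to 8 shallower cells per class and library, and intervals (exact Clopper-Pearson, 95%) cover counting error only. Gja4 was detected in 92.9% (80.5 to 98.5) and 81.6% (68.0 to 91.2) of large artery cells. In Nebl-Pi16 cells the shares were 82.9% and 97.1%, and in arteriolar cells 75.3% and 68.9%. In vein cells, where the gene is low, they were 0.513% and 2.49%, at median depths of 8449 and 8956 UMIs against 6690 and 6819 UMIs in arteriolar cells. Without thinning, 94.0% and 83.5% of arteriolar cells and 4.10% and 3.96% of vein cells had a Gja4 UMI. The arterial shares therefore lay far above the vein share in both libraries although the vein cells were deeper.

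Gja5 was detected in 64.3% (48.0 to 78.4) and 46.9% (32.5 to 61.7) of large artery cells. In arteriolar cells the shares were 6.49% (2.14 to 14.5) and 4.72% (1.55 to 10.7). Without thinning, they were 79.5% and 54.7% in large artery cells and 27.7% and 13.8% in arteriolar cells. No thinned vein cell had Gja5 (0 of 195 and 0 of 201). A count of 0 taken as up to 3 cells allows shares of cells with a UMI of up to 1.54% and 1.49%, and the exact upper limits are 1.87% and 1.82%. In lymphatic valve cells, 0 of 22 and 0 of 38 had Gja5, with exact upper limits of 15.4% and 9.25% of cells with a UMI, so Gja5 was not detectable there at this depth. Both genes were detected in 26 of 42 and 17 of 49 large artery cells. Gja5 was detected in 66.7% and 42.5% of the large artery cells with Gja4 and in 33.3% and 66.7% of the few without it. After thinning, the libraries thus went opposite ways. Without thinning, the shares were 85.4% and 56.25% with Gja4 and 0% and 40.0% without it, the same way in both libraries. Here 41 of 44 and 48 of 53 large artery cells had Gja4, so the shares without it rest on very few cells. Unthinned detection of both genes also rises with a cell's depth, so these shares do not show whether the genes go together.

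In arteriolar cells, detection of Gja1 did not go with that of Gja4. Gja1 was detected in 22.4% and 39.7% of the arteriolar cells with Gja4 and in 26.3% and 39.4% of those without it. Both genes were detected in 13 of 77 and 29 of 106 arteriolar cells. Gja1 was detected in 2.38% and 14.3% of large artery cells, in 28.3% and 39.6% of capillary cells and in 53.1% and 42.6% of tip cells. Without thinning, these Gja1 shares were 4.55% and 22.6%, 52.1% and 65.8%, and 79.8% and 75.9%. In small samples of UMIs, absence of a UMI does not show absence of the transcript.

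**Figure D3:**
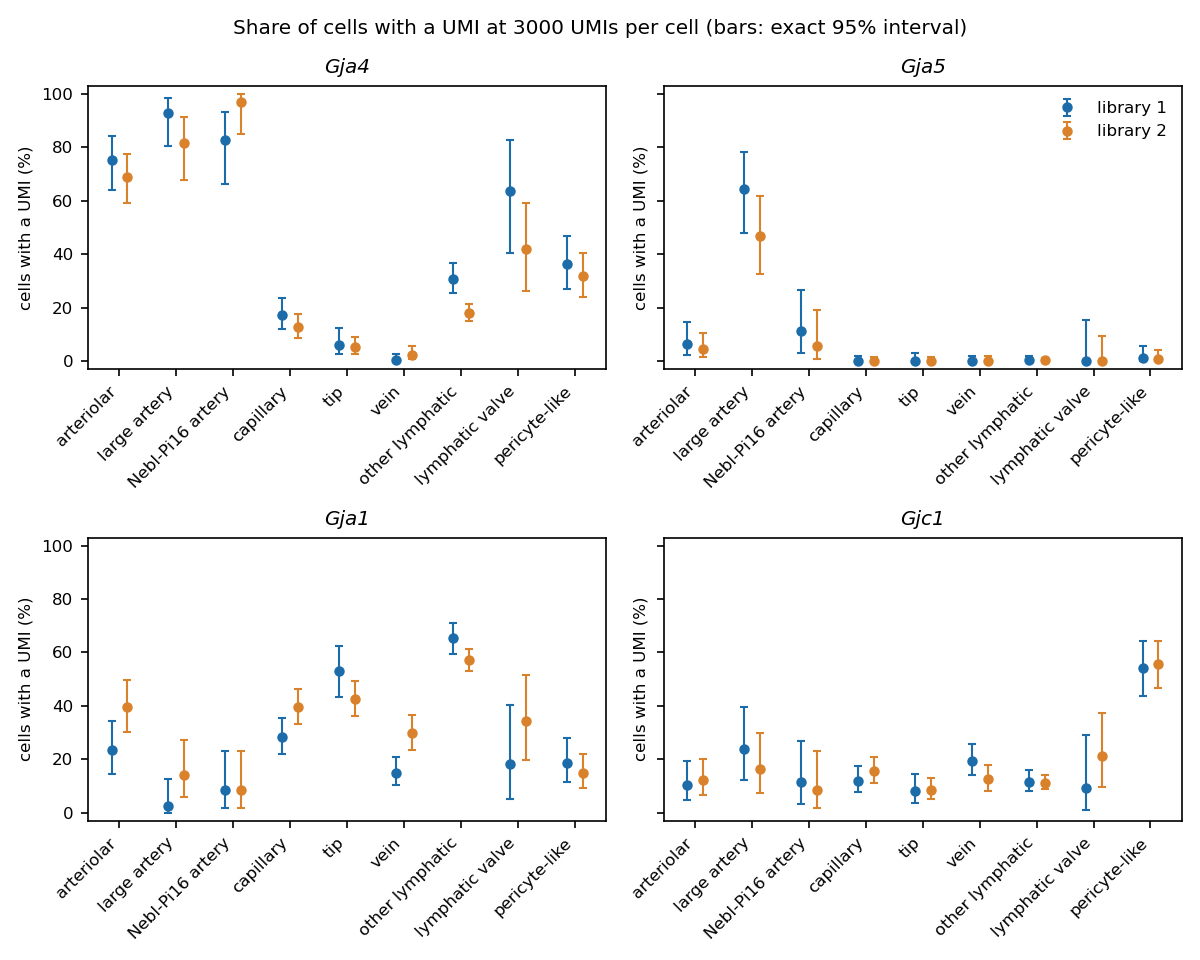
Percent of cells with at least 1 UMI of each connexin after thinning to 3000 UMIs per cell, by class and library, with exact 95% intervals. Gja5 stands at 64.3% and 46.9% in large artery cells and at 11.4% or less in the other classes.

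On the venous side of the capillary bed, Gja4 fell further. Vein cells were lower than capillary cells by -2.94 ± 0.40 on the log2 scale (edgeR adjusted p = 1.61e-05). Of all genes, 8.11% passed (4.69% as higher in vein cells and 3.42% as lower), and 1 of the 4 connexins did. Gja1 was 63.5 and 168 CPM in vein cells (-0.70 ± 0.29, edgeR adjusted p = 0.173) and Gjc1 67.1 and 56.9 CPM (0.32 ± 0.16, edgeR adjusted p = 0.327). Gja5 was at or under the floor in both classes and has no fold.

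Tip cells, the leading cells of sprouts, were compared with capillary cells. Gjc1 was lower, at 37.3 and 28.2 CPM against 44.6 and 54.2 CPM (-0.64 ± 0.18, edgeR adjusted p = 0.0484). Gja4 was 27.0 and 22.7 CPM (-1.12 ± 0.32, edgeR adjusted p = 0.0501). Of all genes, 3.75% passed (1.84% as higher in tip cells and 1.91% as lower), and 1 of the 4 connexins did. Gja1 was 218 and 228 CPM in tip cells and did not pass (0.31 ± 0.28, edgeR adjusted p = 0.744). Both Gjc1 and Gja4 lay near the threshold, and several alternatives put them on its other side, Gjc1 among them without the library term (edgeR adjusted p = 0.10). With clusters in place of the gate, the Gja4 difference turned to 0.50 (edgeR adjusted p = 0.259).

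Lymphatic valve cells had more Gja4 than other lymphatic cells, and Gjc1 passed as higher in the fit though not in every alternative. Gja4 was 674 and 243 CPM in valve cells (180 and 92 UMIs) and 198 and 86.9 CPM in other lymphatic cells. It was higher in valve cells in each library, by 1.68 ± 0.24 on the log2 scale (edgeR adjusted p = 7.69e-05). Gjc1 was also higher, at 86.1 and 90.0 CPM (23 and 34 UMIs) against 56.2 and 48.5 CPM (0.77 ± 0.21, edgeR adjusted p = 0.0227). Of all genes, 9.16% passed (3.94% as higher in valve cells and 5.23% as lower), and 2 of the 4 connexins did. Gja1 was 86.1 and 265 CPM in valve cells and 362 and 302 CPM in other lymphatic cells (-0.96 ± 0.34, edgeR adjusted p = 0.0810). Gja1 was below the other lymphatic cells by -2.06 in library 1 and by -0.19 in library 2 on the log2(CPM + 1) scale. The Gjc1 call was lost without the low-count filter (0.70), with 2 markers (0.65) and with clusters (0.55), and Gja1 passed as lower without the filter (-1.03), with clusters (-1.23) and without dividing cells (-1.07).

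Gja4 was detected in 63.6% (40.7 to 82.8) and 42.1% (26.3 to 59.2) of thinned valve cells and in 30.8% (25.5 to 36.6) and 18.2% (15.1 to 21.6) of other lymphatic cells. Without thinning, the shares were 72.7% and 57.9% in valve cells and 54.8% and 37.5% in other lymphatic cells. Gja1 was detected in 65.2% and 57.1% of thinned other lymphatic cells, the highest Gja1 share of any class in both libraries. In other lymphatic cells, Gja1 was detected in 44 of 86 and 52 of 104 cells with Gja4 and in 71.5% and 58.6% of those without it. The gap ran the same way in both libraries.

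Other lymphatic cells were split by Lyve1, a receptor known from lymphatic capillaries. The 74 and 34 cells without a Lyve1 UMI held Gja4 at 328 and 131 plain CPM, against 168 and 81.3 in the 207 and 542 cells with one. Their Gja1 was 427 and 311 against 353 and 290.5 plain CPM. Both genes were thus higher without Lyve1 in each library, in a split that has no test here.

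Lymphatic cells outside valves also differed from blood capillary cells. Gja4 was higher by 1.28 ± 0.25 (edgeR adjusted p = 0.000236) and Gja1 by 0.93 ± 0.26 on the log2 scale (edgeR adjusted p = 0.00862). Of all genes, 31.1% passed (14.8% as higher in lymphatic cells and 16.3% as lower), and 2 of the 4 connexins did. Gjc1 did not differ detectably (0.06 ± 0.15, edgeR adjusted p = 0.868), and Gja5 had 10 UMIs in the lymphatic class and 1 in the capillary class. The Gja4 call was lost with a stricter cell filter (0.36, edgeR adjusted p = 0.409). The Gja1 call was lost without the library term (edgeR adjusted p = 0.181), with DESeq2 (adjusted p = 0.151) and with that filter (edgeR adjusted p = 0.124).

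Gjc1 was highest in pericyte-like cells. Its gene (ENSMUSG00000034520) lies at chr11:102799579-102819700 on the minus strand of GRCm38. It measured 304 and 324 CPM there and 28.2 to 67.4 CPM in the 6 blood classes, with no overlap. Smooth muscle markers summed to 1912 and 1602 CPM in this class and to 232 CPM at most in blood classes, and fibroblast markers to 519 and 784 CPM against 53.9 CPM at most. Their part in the Gjc1 level was not tested. Its mean was 314 ± 13.9 CPM (SD, n = 2), and the next class, lymphatic valve, had 88.0 ± 2.74 CPM (SD, n = 2). Against the mean log level of the blood classes it was higher by 2.76 ± 0.10 (edgeR adjusted p = 1.66e-15). Of all genes, 19.4% passed (12.9% as higher in pericyte-like cells and 6.44% as lower), and 3 of the 4 connexins did. Gja4, at 234 and 168 CPM, passed by 0.53 ± 0.18 (edgeR adjusted p = 0.0484) against a mean that takes in the arterial classes, which were all higher. Gja5, at 15.9 and 6.63 CPM (21 and 11 UMIs), also passed (edgeR adjusted p = 0.0392), with no fold read from the fit because it depends on the prior count where blood classes are at 0. Both calls were lost without the library term (edgeR adjusted p = 0.264 for Gja4 and 0.124 for Gja5), and without library 1 the Gja5 difference changed sign to -0.11 on the log2(CPM + 1) scale. Gja1, at 76.4 and 98.8 CPM, did not pass (-0.18 ± 0.29, edgeR adjusted p = 0.743).

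Within this class, Gjc1 was higher and Gja1 lower in cells with few endothelial markers. The 16 and 40 pericyte-like cells with fewer than 3 pan-endothelial markers held Gjc1 at 781 and 570 plain CPM, against 270 and 264 in the others. Their Gja1 was 0 and 7.65 plain CPM (0 and 2 UMIs, where 3 UMIs would be 30.4 and 11.5 plain CPM), against 84.0 and 110. Gja4 stayed at 213 and 199 plain CPM, against 240 and 154. Gja4 in the cells with few endothelial markers was thus on the scale of the other pericyte-like cells, and Gja1 was at or near 0. The split counts detected markers and was not matched for depth, so it can also sort cells by their number of UMIs. The part of depth or doublets in these differences was not tested. Gjc1 was detected in 54.2% and 55.6% of thinned pericyte-like cells and Gja4 in 36.5% and 31.9%. Without thinning, the shares were 85.0% and 90.6% for Gjc1 and 70.0% and 57.2% for Gja4.

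**Figure D4:**
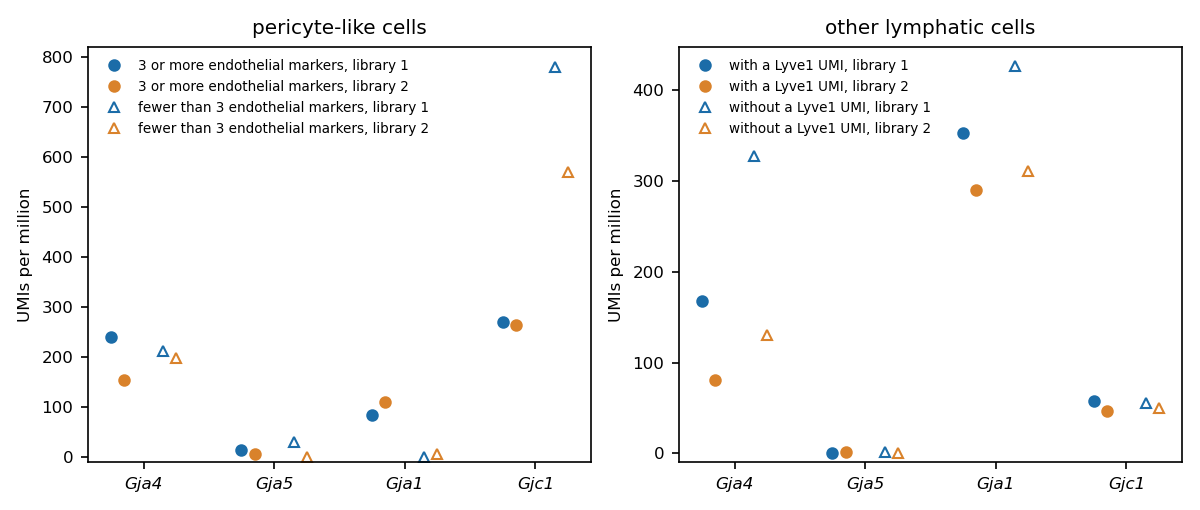
Connexin levels in plain CPM (of the cells' own total), per library, for pericyte-like cells split by pan-endothelial markers and other lymphatic cells split by Lyve1. Gjc1 stands at 781 and 570 in pericyte-like cells with fewer than 3 pan-endothelial markers and at 270 and 264 in the others.

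In most classes that could be split, dividing cells held less Gja4 and more Gjc1, without a test. At least 20 cells in each library scored as dividing in 5 classes (vein, capillary, tip, other lymphatic and pericyte-like). Gja4 was lower in dividing cells in both libraries in 4 of these 5, and not in veins. Gjc1 was higher in both libraries in 4 of 5, and not in pericyte-like cells. In capillaries, Gja4 was 12.5 and 24.2 plain CPM in dividing cells and 99.2 and 54.9 in the rest. Gjc1 there was 72.0 and 76.3 against 28.7 and 35.8. In other lymphatic cells, Gja4 was 109 and 31.8 against 242 and 124, and Gjc1 86.7 and 56.3 against 44.4 and 39.3. Gja1 had no common direction, being lower in 1 class and higher in 1.

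Without dividing cells, the directions of the arterial and valve results above were kept for Gja4, Gja5 and Gja1. Gjc1 in arteriolar against capillary cells went from -0.08 to 0.35 on the log2 scale. Dividing cells made up 26.0% and 25.6% of capillary cells and 7.23% and 9.17% of arteriolar cells.

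Among the other gap junction channel genes listed, the pannexin gene Panx1 reached 10 CPM in both libraries only in veins, at 13.4 and 10.8 CPM.

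Next came the genes of proteins that bind connexins or share their junctions. Of 10 partners tested (11 listed), 1 rose and 0 fell in arteriolar against capillary cells, with a median of 0.29 against -0.01 for all genes; 9.47% of all genes passed there, so this count is at the background. The gene that rose was Dbn1, which encodes the actin-binding protein drebrin (1.48, edgeR adjusted p = 4.67e-05). Against veins, where 14.4% of all genes passed, 5 rose and 0 fell (median 0.55 against -0.03), among them Dbn1 (1.59), the caveola gene Cav1 (0.88) and Cdh5 (0.60). In large artery against arteriolar cells (6.12% of all genes) 0 rose and 1 fell, Cdh5 (-0.51). In Nebl-Pi16 against arteriolar cells (4.42%) 0 rose and 2 fell, Cav1 (-0.73) and Cdh5 (-0.54).

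Outside arteries the partners moved in both directions. In vein against capillary cells (8.11% of all genes passed) 0 rose and 2 fell, Cdh5 (-0.42) and Cav1 (-0.49), and in tip cells (3.75%) 0 rose and 1 fell, the beta-catenin gene Ctnnb1 (-0.38). In valve against other lymphatic cells (9.16%) 1 rose and 1 fell, Dbn1 (0.84) and the ubiquitin ligase gene Nedd4 (-0.43). In other lymphatic against capillary cells (31.1%) 2 rose and 4 fell, with Cdh5 (-1.41), Cav1 (-1.15) and the scaffold gene Tjp1 (-0.60) leading. In pericyte-like cells (19.4%) 3 rose and 4 fell. N-cadherin, encoded by Cdh2, had 51 and 76 UMIs there and at most 2 UMIs in any blood class and library. Going the other way, mean Cdh5 was 636 CPM in pericyte-like cells and 825 CPM or more in the blood classes. Mean Ctnnb1 was 442 CPM against 493 CPM or more.

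A list of 14 genes tied to endothelial connexins by Notch, flow and forkhead pathways had 11 tested members, of which Hey1, Dll4, Sox17, Foxc2 and Prox1 also served as gate markers and are no findings. Of the 6 others, 4 rose and 0 fell in arteriolar against capillary cells (median of the 6 0.79, all genes -0.01; 4.91% of all genes rose and 4.55% fell), among them the flow-responsive factor Klf2 (0.83, edgeR adjusted p = 4.995e-05). Large artery cells had more Notch4, a Notch receptor (0.94, edgeR adjusted p = 0.00352), and more Klf2 (0.52, edgeR adjusted p = 0.00838) than arteriolar cells, so 2 rose and 0 fell (3.14% and 2.98% of all genes). In Nebl-Pi16 cells 2 rose and 1 fell (1.98% and 2.44% of all genes), with Klf2 (0.97) and its relative Klf4 (1.14) up. Against veins, arteriolar cells had 2 rises and 1 fall (7.04% and 7.39% of all genes), with Notch4 up by 2.72.

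Klf2 and Klf4 also rose in valve cells. Klf2 was 2834 and 3305 CPM in valve and 1447 and 1379 CPM in other lymphatic cells (1.12, edgeR adjusted p = 2.08e-06), and Klf4 rose by 1.31 (edgeR adjusted p = 3.65e-06). Of the 6 genes outside the gate, 2 rose and 0 fell there (3.94% and 5.23% of all genes). The summed stress and immediate-early genes were higher in valve cells too, at 8041 and 8500 CPM against 6249 and 6313 CPM in other lymphatic cells. They were lower in tip (5542 and 8280 CPM) than in capillary cells (7840 and 13150 CPM) and higher in vein cells (11870 and 16860 CPM). Arteriolar cells (10340 and 14740 CPM) were also above capillary cells. Against arteriolar cells, the sum was higher in Nebl-Pi16 cells (10800 and 18680 CPM) and lower in large artery cells (6735 and 10810 CPM). The part of these genes in the Klf2 and Klf4 differences, the arterial ones above included, was not tested. In tip cells 0 rose and 2 fell (1.84% and 1.91% of all genes), Klf4 (-1.24) and Klf2 (-0.93). In vein against capillary cells 3 rose and 1 fell (4.69% and 3.42%), with Klf2 up by 0.75 and Notch4 down by -1.80. In other lymphatic against capillary cells 3 rose and 1 fell (14.8% and 16.3%), Notch4 by -3.87. In pericyte-like cells 0 rose and 4 fell (12.9% and 6.44%), with Klf2 (-1.09), Klf4 (-0.96) and Notch4 (-1.22) among them. Notch4 is also among the markers listed for blood endothelium, a set the gate did not read.

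Genes with the most similar pattern were ranked by Pearson's r of log2(CPM + 1) over the 18 class and library sums, among 8221 genes. The 18 points share 2 libraries, so r is a description with no test. Gja4 was most like the collagen gene Col8a1 (0.90), S100a4 (0.89), Itm2b (0.89), the gate marker Hey1 (0.88) and Col18a1 (0.87). Gja5 was most like Serpinf1 (0.96), Specc1 (0.95), Ssfa2 (0.94), Egfl8 (0.94) and Ptchd1 (0.94). For Gja1 the list was Senp2 (0.93), Lyn (0.92), Trps1 (0.89), Kdr (0.88), which encodes the VEGF receptor, and Rtraf (0.87). For Gjc1 it was Prrx1 (0.93), Emb (0.89), C1s1 (0.89), Itga7 (0.89) and the gate marker Col1a1 (0.88).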

How the data were processed

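UMI counts per gene and cell were used as the authors deposited them. Cell Ranger, Seurat 3.0.2 and mm10 are named in the submitters' processing notes, without roles. The antibody tag libraries were not used here. The members and gene lists were chosen with earlier results of these data known. Cells with under 500 genes (26 and 45), over 10% mitochondrial UMIs (240 and 616) or a Scrublet doublet call (scanpy 1.11.5; 3 and 11) were removed, and free RNA was not corrected.

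Cells were gated by 3 or more detected markers of a set and, in blood endothelium, a lead of 0.25 in mean z score. Lymphatic valve cells needed a valve score of 0.75. The UMIs of each class in a library were added up and fitted for all genes in edgeR 4.0.16 (R 4.3.3; TMM, filterByExpr, quasi-likelihood test, library as block, 18 sums, 8 residual degrees of freedom). Benjamini-Hochberg adjusted p-values under 0.05 over 10870 genes were called. SE is the log2 difference over the square root of F. Sums of 1 library come from the same animals, which pairs the classes by library. Deviations from class means correlated within libraries at 0.000408 to 0.302 (median 0.0867, 36 pairs). The block takes out the shift between the 2 libraries that all classes share. P-values measure the spread between the 2 libraries that is left after this. That spread is estimated over all classes together, not from the compared classes alone.

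Counts were simulated for arteriolar against capillary cells (10658 genes, 200 of them changed). Here 46.0% of 2-fold and 85.0% of 4-fold changes were found and 2.96% of calls were false. The changed genes were drawn only from those above a floor of mean level, and no other comparison was checked in this way. Named genes were the members, other channel genes at 10 CPM or more in both libraries of a class, up to 3 list genes per comparison with the smallest adjusted p, and the 5 most correlated genes per member. Some items are not reported here. Alternatives were DESeq2 1.42.0, no TMM, no filter, no block, 2 or 4 markers, clusters, no dividing cells, a stricter cell filter (1000 genes, 5% mitochondrial) and leaving out a library.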

Additional observations from a re-analysis of the deposited data

How the results depend on the processing

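Of 32 member comparisons, 16 were called, and 14 (8 called, 6 not) kept direction and side of the threshold in every alternative with a test that could be run; the cause of the other changes was not tested. Single libraries give no test, and 1 of them had the sign opposite to the fit for Gja1 (-0.22) and Gjc1 (0.10) in arteriolar against capillary cells, Gjc1 in other lymphatic cells (-0.16) and Gja1 (0.53) and Gja5 in pericyte-like cells. Fitted Gja5 values in pericyte-like cells depend on the prior count and are no folds. Log2 differences follow, with no adjusted p unless given. Without the replicate block, calls were lost for Gja1 in large artery (-2.61) and Nebl-Pi16 (-2.26) against arteriolar cells, Gjc1 in tip cells (-0.63), Gja1 in other lymphatic cells (0.86) and Gja4 (0.54) and Gja5 (1.67) in pericyte-like cells. With DESeq2, the difference was -0.060 for Gja1 in arteriolar against capillary cells, and calls were lost for Gjc1 in tip (-0.63), Gja1 in other lymphatic (0.999) and Gja4 (0.51) and Gja5 (1.61) in pericyte-like cells. Without TMM, Gjc1 in tip (-0.63) and Gja4 in pericyte-like cells (0.52) were lost. Without the low-count filter, Gja1 in arteriolar against capillary cells was -0.027, Gja1 passed against veins (0.69), in veins (-0.71) and in valves (-1.03), Gja4 passed in Nebl-Pi16 (0.57) and tip cells (-1.12), and Gjc1 in valves was lost (0.70). With 2 markers, Gja4 in tip cells passed (-1.22) and Gjc1 was lost in tip (-0.62) and valve cells (0.65). With 4 markers, Gja1 in arteriolar against capillary cells was -0.069, and Gjc1 in tip (-0.64), Gja4 (0.44) and Gja5 (1.32) in pericyte-like cells were lost. With clusters, Gja4 in tip cells was 0.50 and Gja1 in pericyte-like cells 0.031, Gja4 passed in large artery (0.76) and Nebl-Pi16 cells (0.86), Gja1 passed in valves (-1.23), and Gjc1 in valves (0.55) and Gja5 in pericyte-like cells (0.49) were lost. Without dividing cells, Gjc1 in arteriolar against capillary cells was 0.35, Gja4 passed in Nebl-Pi16 (0.68) and tip cells (-1.38), Gjc1 in veins (0.79) and Gja1 in valves (-1.07), and Gjc1 in tip (-0.68) and Gja5 in pericyte-like cells (1.59) were lost. With the stricter cell filter, Gja4 in tip cells passed (-1.52), and Gjc1 in tip (-0.41), Gja4 (0.36) and Gja1 (0.58) in other lymphatic and Gja5 in pericyte-like cells (2.50) were lost; large artery, Nebl-Pi16 and valve comparisons could not be run there, since under 20 cells were left. The Gja5 difference in pericyte-like cells ran from -0.11 to 0.62 over the 2 libraries left in alone. In pericyte-like cells with few endothelial markers, an alternative added after the data had been seen, Gja5 was -0.77, Gja1 -4.87 and Gjc1 3.83 on the log2(CPM + 1) scale. Counts of genes called were 1029 in arteriolar against capillary cells (clusters 2283, no dividing cells 583, stricter filter 543), 1568 against veins (stricter 862), 665 in large artery cells (no block 441, clusters 1078), 480 in Nebl-Pi16 cells (no block 275), 882 in veins (no block 530, clusters 1979, stricter 368), 408 in tip cells (no filter 635, no block 171, clusters 785), 996 in valves (no block 622, no dividing cells 650), 3381 in other lymphatic cells (stricter 2244) and 2104 in pericyte-like cells (stricter 684). Without thinning, mean shares were 88.7% for Gja4 in arteriolar, 4.03% for Gja4 in vein, 20.7% for Gja5 in arteriolar, 86.8% and 77.9% for Gja1 in other lymphatic and tip, and 87.8% for Gjc1 in pericyte-like cells, and with 4 markers the last was 57.1% after thinning.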

Other observations

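Within vein cells, the low Gja4 (13 and 15 UMIs in the whole class) differed between cells with and without wall genes. The 89 and 29 vein cells with at least 2 of the wall genes Eln, Mgp, Sulf1 and Cytl1 held Gja4 at 14.3 and 21.6 plain CPM, against 0.915 and 4.92 (1 and 9 UMIs) in the 106 and 173 others. Gja4 was higher in the cells with wall genes in each library. These wall genes are also large artery markers of the gate, and whether RNA of arterial cells adds to this Gja4 was not tested. No test was made of these values, which come from a split chosen after the data had been seen.

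Blood endothelial cells that scored between the marker sets held Gja5 at 5.27 and 2.75 plain CPM, between the arteriolar and capillary levels.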
